A study of Mus musculus with 8 samples.

Results

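The immediate early and AP-1 genes are a set of 10 transcription factor genes and close companions, many of which cells switch on within minutes of a stimulus. They were Fos, Fosb, Fosl1 and Fosl2 of the Fos family, Jun, Junb and Jund of the Jun family, Atf3, Egr1 and Ier2. Members were chosen by name, as every probe whose gene name in the scanner files was 1 of these 10, out of 35019 gene names on the array. They had 11 of the 55681 probes, with 2 probes for Fosl2 and 1 for each of the other 9 genes. Fos alone had its probe printed in 10 spots on each array.

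Fos and Jun proteins pair through a leucine zipper to form AP-1, a dimer that binds DNA and controls genes of growth, migration and matrix breakdown. Jun proteins can pair with each other, Fos proteins need a Jun partner, and Atf3 belongs to a related family that often acts as a repressor. Egr1 is a zinc finger factor induced by the same MAP kinase and serum response signals, and Ier2 is a small nuclear protein of the same early wave. In tissue and cultured cells many of these genes respond to serum, wounding, enzymatic dissociation and inflammatory signals, so their level can depend on both cell state and recent handling. The part of handling was not tested here.

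The arrays compared 4 groups of C57BL/6 mouse samples, 2 arrays each. CD45-negative cells were primary c-kit+/CD45- cells from left atrial appendage explants, taken from mice aged 8 to 12 weeks and digested strongly, with 0.25% trypsin and 0.1% collagenase D, before culture in 24-well plates. CD45-positive cells were primary c-kit+/CD45+ cells from the same tissue and ages after a weak digestion, with 0.05% trypsin and 0.1% collagenase D, so that digestion and sort gate changed together. Passage-8 cells were derivatives of the c-kit+/CD45+ cells at passage 8, and the control was biopsied left ventricular wall of mice aged 12 weeks. The explants were grown in medium with serum, whereas the ventricle was taken as a biopsy. RNA of the cells was extracted with a column kit and RNA of the ventricle with Tri-reagent. In any difference between cells and ventricle, heart region, culture and extraction cannot be told apart. Whether the replicates of a group are separate cultures or animals is not stated in the labels. The p-values therefore reflect the scatter among these samples alone, and that scatter may be technical. In bulk RNA, fewer cells of a type and less RNA per cell cannot be told apart.

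Signals are given as log2 values set against the array's own 75th percentile, so 0 is that percentile and 1 unit is a factor of 2. A gene passed when its limma adjusted p was under 0.05 and its log2 difference was at least 1 in size. The share of spots well above background was 51.5% to 69.9%, and the replicate standard deviation ran from 0.198 log2 units in CD45-positive to 0.573 in CD45-negative cells. The summed relative signal of 8 macrophage and leukocyte markers was 795 to 814 in CD45-positive cells, 3.49 to 30.6 in CD45-negative cells, 6.85 to 7.04 in passage-8 cells and 32.1 to 39.2 in ventricle. That of 6 cardiomyocyte markers was 3068 to 3746 in ventricle and 0.493 to 6.03 in the cells. Kit, the gene of c-kit, was well above background on both arrays in CD45-positive cells and ventricle, on 1 array in CD45-negative cells and on neither in passage-8 cells.

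**Figure D1:**
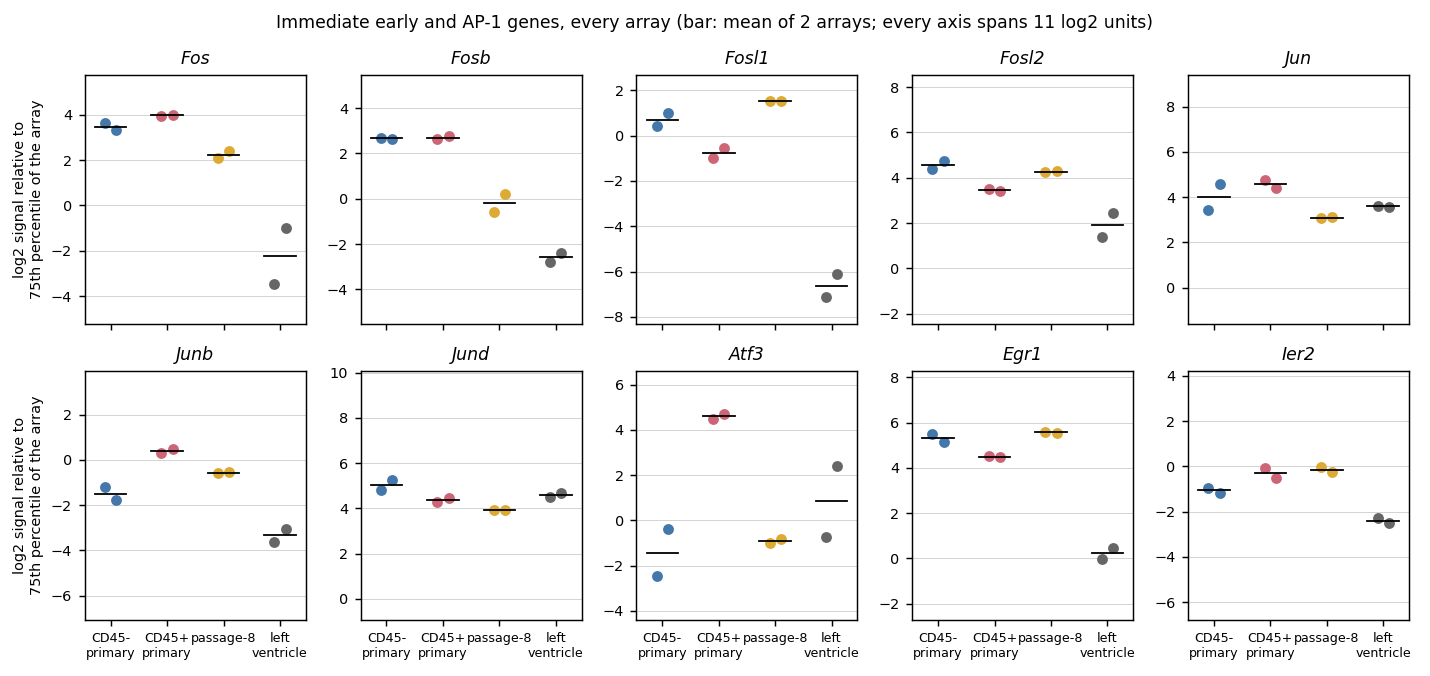
Log2 signal of each of the 10 genes relative to the 75th percentile of the array (vertical axis) in every array of the 4 groups (horizontal axis), with 1 point per array and a bar at the mean of 2 arrays. The ventricle points of Fos, Fosb, Fosl1, Fosl2, Junb, Egr1 and Ier2 lie below all cell points, Atf3 stands highest in CD45-positive cells, and Jun and Jund vary least between groups.

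In the Fos family, all 4 genes stood lowest in ventricle, while their order among the cells differed. Fos, the founding member and a fast responder, had a log2 signal of 3.65 and 3.33 in CD45-negative cells, 3.95 and 4.01 in CD45-positive cells, 2.08 and 2.40 in passage-8 cells, and -3.45 and -0.98 in ventricle. The primary cells were highest, passage-8 cells lay below them without overlap, and the ventricle arrays were far lower and far apart. Only the step from passage-8 cells to ventricle passed between neighbours in this order, and the 2 primary groups differed by 0.50 (adjusted p = 0.661). With outlier spots left out, the 8 to 10 remaining Fos spots of an array had a coefficient of variation of 2.60% to 9.55%. The 5.55-fold gap between the ventricle arrays thus exceeded the spot error.

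**Figure D2:**
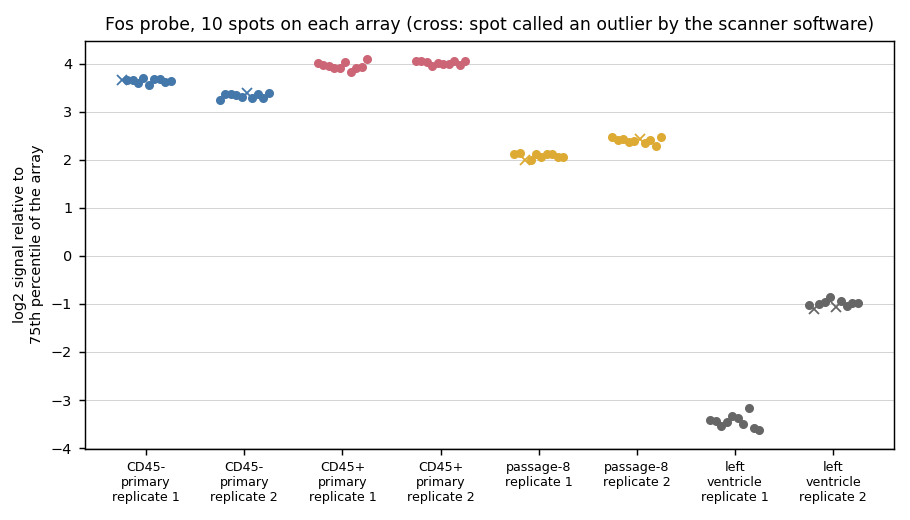
Log2 signal of each of the 10 Fos spots relative to the 75th percentile of its array (vertical axis) on the 8 arrays (horizontal axis), with crosses for spots called outliers by the scanner software. Spots of an array lie close together, and the 2 ventricle arrays are separated from each other and from all cell arrays.

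Fosb, a family member with a strong activation domain, had a log2 signal of 2.69 and 2.63 in CD45-negative cells, 2.62 and 2.76 in CD45-positive cells, -0.57 and 0.19 in passage-8 cells, and -2.79 and -2.38 in ventricle. The primary groups overlapped (difference -0.024, 95% interval -0.79 to 0.75), passage-8 cells were lower than both, and ventricle was lower again. Both lower steps of that order passed, with differences of 2.85 and 2.40.

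Fosl1, which encodes Fra-1, a Fos protein lacking the strong activation domain, showed the opposite order among the cells. Its log2 signal was 0.44 and 0.98 in CD45-negative cells, -0.97 and -0.55 in CD45-positive cells, 1.52 and 1.51 in passage-8 cells, and -7.12 and -6.12 in ventricle, where it was not well above background on either array. Passage-8 and CD45-negative cells did not overlap but differed by 0.80 (95% interval -0.18 to 1.79, adjusted p = 0.224), and both stood above CD45-positive cells. The summed signal of 6 fibroblast and stromal markers moved with Fosl1 in part, at 968 and 921 on the CD45-negative arrays, 371 and 366 on the CD45-positive arrays, 546 and 555 on the passage-8 arrays, and 236 and 383 on the ventricle arrays. The single markers were divided. In passage-8 against CD45-positive cells Lum was higher (2.83), Thy1 was lower (-4.97) and 4 did not pass. In passage-8 against CD45-negative cells 3 of the 6 were lower and 0 higher. The markers' part in the Fosl1 order was not tested.

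Fosl2, which encodes Fra-2, a further member without that domain, had a log2 signal of 4.39 and 4.73 in CD45-negative cells, 3.49 and 3.41 in CD45-positive cells, 4.24 and 4.28 in passage-8 cells, and 1.38 and 2.46 in ventricle. The groups did not overlap, but no 2 cell groups differed past the threshold, with the largest gap, 1.11 between CD45-negative and CD45-positive cells, at an adjusted p of 0.0803. The second Fosl2 probe was dim, from -5.28 in ventricle to -2.16 in CD45-negative cells, and well above background on 7 arrays. It gave the same sign in the contrasts with ventricle, passing for CD45-negative cells (1.98) but not for CD45-positive cells (0.94, adjusted p = 0.215).

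The array probes lie, in build mm9, at chr12:86817900-86817959 for Fos, chr7:19888168-19888227 for Fosb, chr19:5455496-5455555 for Fosl1 and chr5:32460076-32460135 for the Fosl2 probe used. Their place within exons or untranslated regions was not determined here. The 250 bases before the start of Fos (chr12:85473640-85473889, plus strand) and of Fosb (chr7:19310046-19310295, minus strand) are shown because these 2 genes were high together in the primary cells. They come from RefSeq in build GRCm38.p6, which differs from the probes' build, and run 5′ to 3′ in the direction of transcription. Capitals mark the 5-letter half-site of the cAMP response element, TGACG, found 2 times before Fos and 1 time before Fosb.
Fos: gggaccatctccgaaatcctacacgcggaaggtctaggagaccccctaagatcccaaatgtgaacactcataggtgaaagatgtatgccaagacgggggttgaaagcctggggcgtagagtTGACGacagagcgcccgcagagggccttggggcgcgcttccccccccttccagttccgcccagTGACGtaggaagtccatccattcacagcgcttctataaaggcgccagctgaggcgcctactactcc
Fosb: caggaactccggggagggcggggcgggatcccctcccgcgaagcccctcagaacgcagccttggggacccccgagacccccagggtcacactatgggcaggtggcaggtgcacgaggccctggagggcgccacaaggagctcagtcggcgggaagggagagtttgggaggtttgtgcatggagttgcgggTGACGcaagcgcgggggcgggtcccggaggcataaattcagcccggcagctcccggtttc
In Fos the half-sites end 125 and 62 bases before the start, and a TATAAA box lies 33 to 28 bases before it. In Fosb the half-site lies 60 to 56 bases before the start.

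In the Jun family, each gene passed in 1 of the 3 comparisons among cells, a different one for each, and against ventricle only Junb passed. Jun, the main AP-1 partner of Fos, had a log2 signal of 3.44 and 4.57 in CD45-negative cells, 4.77 and 4.39 in CD45-positive cells, 3.06 and 3.14 in passage-8 cells, and 3.60 and 3.58 in ventricle. The CD45-negative arrays lay 2.19-fold apart and overlapped both CD45-positive cells and ventricle, while passage-8 cells were lowest. No neighbours in the order of CD45-positive, CD45-negative, ventricle and passage-8 differed past the threshold, with adjusted p-values from 0.327 to 0.424.

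Junb, which often restrains Jun and is induced by cytokines, had a log2 signal of -1.19 and -1.79 in CD45-negative cells, 0.31 and 0.49 in CD45-positive cells, -0.60 and -0.53 in passage-8 cells, and -3.61 and -3.04 in ventricle. All 4 groups were apart, in the order CD45-positive, passage-8, CD45-negative and ventricle. Between neighbours in that order only CD45-negative cells against ventricle passed, and the steps above it were 0.97 (adjusted p = 0.0670) and 0.92 (adjusted p = 0.0997).

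Jund, the Jun gene that most cells express steadily, had a log2 signal of 4.82 and 5.23 in CD45-negative cells, 4.28 and 4.46 in CD45-positive cells, 3.93 and 3.95 in passage-8 cells, and 4.50 and 4.67 in ventricle. Its group means spanned 1.09 log2 units, the narrowest of the 10 genes, against 1.48 for Jun and 6.01 for Atf3. Over the 8 arrays Jun and Jund were also the closest pair of members, with a root mean square difference of 0.56 between their centred profiles. This measure is small for genes that vary little, and their group orders differed. CD45-positive cells were highest for Jun and CD45-negative cells for Jund.

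The Jun family probes lie in mm9 at chr4:94716928-94716987 for Jun, chr8:87501881-87501940 for Junb and chr8:73224436-73224495 for Jund. The promoters of Jun (chr4:95052223-95052472, minus strand, GRCm38.p6) and Junb (chr8:84978749-84978998, minus strand) are shown because the 2 genes differed in which cell comparisons they passed. Capitals mark TGACATCA, a known type of AP-1 site, in Jun and the half-site TGACG in Junb.
Jun: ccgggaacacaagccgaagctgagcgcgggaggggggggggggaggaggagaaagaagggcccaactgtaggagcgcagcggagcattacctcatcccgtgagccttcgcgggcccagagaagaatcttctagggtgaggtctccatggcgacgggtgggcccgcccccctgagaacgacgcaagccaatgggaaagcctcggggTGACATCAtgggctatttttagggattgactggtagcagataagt
Junb: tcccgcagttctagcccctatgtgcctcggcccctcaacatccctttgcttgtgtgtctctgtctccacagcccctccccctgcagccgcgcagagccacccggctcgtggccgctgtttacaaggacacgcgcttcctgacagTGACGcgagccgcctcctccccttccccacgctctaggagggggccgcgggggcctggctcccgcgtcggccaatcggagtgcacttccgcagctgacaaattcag
The Jun match lies 45 to 38 bases before the start and the Junb match 106 to 102 bases before it.

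Atf3, a stress-induced factor that dampens inflammatory genes in macrophages, was highest in CD45-positive cells. Its log2 signal was -2.45 and -0.39 in CD45-negative cells, 4.50 and 4.68 in CD45-positive cells, -1.0 and -0.84 in passage-8 cells, and -0.73 and 2.41 in ventricle. CD45-positive cells stood apart from all other arrays, and the 2 arrays differed widely in CD45-negative cells (4.17-fold) and in ventricle (8.82-fold). Macrophage markers moved with Atf3 between the cell groups, at sums of 814 and 795 in the CD45-positive arrays against 3.49 and 30.6 in CD45-negative and 7.04 and 6.85 in passage-8 arrays, and the CD45-negative array with more marker signal also had more Atf3. In ventricle they did not, with sums of 39.2 and 32.1 on the arrays at -0.73 and 2.41. The markers' part in the Atf3 result was not tested.

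**Figure D3:**
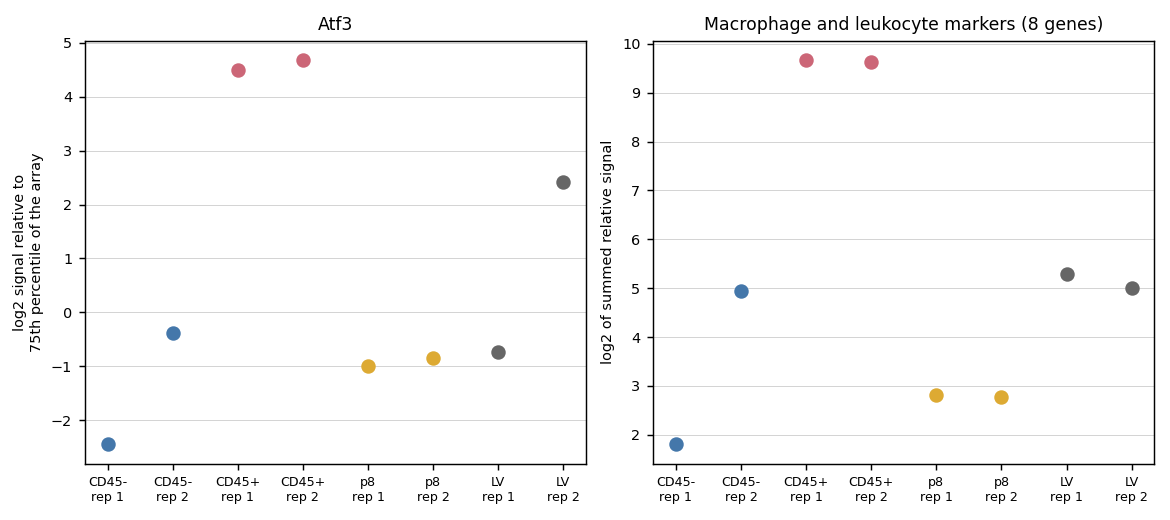
Left, log2 signal of Atf3 relative to the 75th percentile of the array, and right, log2 of the summed relative signal of 8 macrophage and leukocyte markers, each on the 8 arrays (horizontal axis: CD45- and CD45+ primary cells, p8 for passage-8 cells, LV for left ventricle). The CD45-positive arrays are highest in both panels, and the 2 ventricle arrays differ in Atf3 but little in the markers.

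The Atf3 probe lies in mm9 at chr1:192994547-192994606. The sequence before its RefSeq start (chr1:191183334-191183583, minus strand, GRCm38.p6) holds the half-site on the opposite strand, written CGTCA in capitals, 7 to 3 bases before the start.
Atf3: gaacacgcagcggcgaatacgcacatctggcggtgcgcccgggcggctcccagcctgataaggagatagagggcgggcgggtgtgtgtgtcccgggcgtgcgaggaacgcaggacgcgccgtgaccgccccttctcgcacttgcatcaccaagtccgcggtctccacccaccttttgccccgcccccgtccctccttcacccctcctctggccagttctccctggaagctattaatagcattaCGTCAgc
It is shown because Atf3 had the widest range among the cell groups, 6.01 log2 units between group means.

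Egr1, whose protein binds GC-rich sites and drives growth factor genes, had a log2 signal of 5.49 and 5.13 in CD45-negative cells, 4.50 and 4.47 in CD45-positive cells, 5.60 and 5.53 in passage-8 cells, and -0.0085 and 0.47 in ventricle. All cell arrays were high, from 4.47 to 5.60, and ventricle was the clear exception. Passage-8 cells passed as higher than CD45-positive cells (1.08, limma adjusted p = 0.0273), a call lost with any 1 of their arrays left out. Among neighbours in its order, passage-8 and CD45-negative cells differed by 0.25 (adjusted p = 0.537) and CD45-negative and CD45-positive cells by 0.83 (adjusted p = 0.0617). Its probe lies on chromosome 18.

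Ier2 had a log2 signal of -0.93 and -1.19 in CD45-negative cells, -0.07 and -0.53 in CD45-positive cells, -0.05 and -0.23 in passage-8 cells, and -2.29 and -2.49 in ventricle. The CD45-positive and passage-8 arrays overlapped, CD45-negative cells were lower than both and ventricle was lowest, but only the step to ventricle passed between neighbours. Its probe lies in mm9 at chr8:87186214-87186273. No promoter of Fosl1, Egr1 or Ier2 is shown.

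The first comparison of the design set the 2 primary cell types against each other. Atf3 stood 64.5-fold below its CD45-positive level in the CD45-negative cells (log2 difference -6.01, SE 1.11, limma adjusted p = 0.0148), and Junb was 3.71-fold lower (-1.89, SE 0.31, adjusted p = 0.0102). Fosl1 was 2.78-fold higher (1.48, SE 0.40, adjusted p = 0.0432). The other 7 genes did not pass. Fosl2 (1.11), Egr1 (0.83), Jund (0.66) and Ier2 (-0.76) had adjusted p-values between 0.0617 and 0.0879, and Fos, Fosb and Jun between 0.327 and 0.962. Thus 3 of 10 members passed, where 21.8% of 21638 genes did (11.2% higher and 10.5% lower), and the members' median difference was -0.26 against 0.17 for all genes tested. The arrays of the 2 groups did not overlap for 8 of the 10, against 68.9% of all genes. With either CD45-positive array left out, 0 members passed (Atf3 at adjusted p 0.0816 and 0.0973, Junb at 0.0668 and 0.0887), and Fosl1 also lost its call without either CD45-negative replicate (0.0518 and 0.117). Without CD45-negative replicate 1 or 2 the Atf3 difference was -4.98 or -7.04.

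Among 40 other immediate early genes tested in this comparison, 9 were higher and 2 lower, with a median difference of 0.25. The largest rises were those of the nuclear receptor Nr4a2 (2.17), the EGF receptor inhibitor Errfi1 (1.97), Phlda1 (1.56) and Ier5l (1.55), and the lower genes were Ier5 (-2.06) and the survival factor Mcl1 (-1.63). Among 25 relatives of AP-1 with a basic leucine zipper, 2 were higher, Bach2 (1.67) and the AP-1 repressor Jdp2 (1.30), and 7 were lower. Lower relatives included the macrophage factor Maf (-4.43) and Batf3 (-3.05), a factor of dendritic cells. Atf7 (-6.73) also passed, but its second probe was flat, between -2.99 and -2.08 on all 8 arrays, so the 2 Atf7 probes disagree. The macrophage marker sums given above moved with these lower genes, and their part was not tested.

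Of 26 AP-1 target genes tested in the same comparison, the protease inhibitor Timp1 was higher (1.58) and 6 were lower, among them osteopontin Spp1 (-3.67), urokinase Plau (-3.25) and Tgfb1 (-1.80). The matrix proteases Mmp12 (-9.0) and Mmp13 (-6.15) were well above background on only 1 CD45-negative array, and Mmp9 was at least 21.3-fold lower. Of 17 feedback phosphatases and inhibitors of the MAP kinases, 4 were higher and 0 lower at the threshold: Dusp4 (2.52), Spry4 (2.35), Il17rd (1.80) and Spred2 (1.66). At an unadjusted limma p under 0.05 the counts were 7 higher and 2 lower. Of 28 upstream kinases and transcription factors, Mapk12 (1.59), Mapk11 (1.57) and Elk3 (1.23) were higher, and Rps6ka1 (-2.47), Nras (-1.22), Mapkapk2 (-1.16) and Map2k7 (at least 2.01-fold) were lower. Of 14 heat shock genes 0 passed with limma, and 5 were higher and 0 lower at an unadjusted p under 0.05. Without CD45-positive replicate 1 or 2 the higher counts were 1 or 0 for the other early genes and 1 or 0 for the feedback list, and the lower counts 2 or 1 for the targets and 3 in both fits for the relatives. Median scaling or a fit of the 2 groups alone left 2 other early genes higher.

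The second comparison set passage-8 cells against the CD45-positive cells they derive from. Fosb was 7.33-fold lower at passage 8 (log2 difference -2.87, SE 0.31, adjusted p = 0.00250), Atf3 was 45.5-fold lower (-5.51, SE 1.11, adjusted p = 0.0171) and Jun was 2.79-fold lower (-1.48, SE 0.39, adjusted p = 0.0401). Fosl1 was 4.86-fold higher (2.28, SE 0.40, adjusted p = 0.0107) and Egr1 was 2.11-fold higher (1.08, SE 0.25, adjusted p = 0.0273). The remaining 5 did not pass: Fos (-1.74, 95% interval -3.60 to 0.11), which passed under normexp, with array weights and in a fit of the 2 groups alone, Junb (-0.97, adjusted p = 0.0670), Fosl2 (0.81), Jund (-0.43) and Ier2 (0.16). So 5 of 10 passed against 23.5% of 23575 genes (12.6% higher and 10.9% lower), with a median of -0.70 beside 0.16 for all genes. The arrays were apart for 9 of the 10, against 83% of all genes. Fosb passed with any 1 array left out, whereas only 1 to 2 members passed in those fits. Fosl1 kept its call only without passage-8 replicate 1 (adjusted p 0.0505 to 0.0743 in the other 3 fits), and Atf3, Jun and Egr1 lost theirs without any of the 4 arrays, at adjusted p-values from 0.0506 to 0.192.

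Of 42 other immediate early genes, 4 were higher and 3 lower at passage 8. The neuronal activity gene Arc (2.58), Arid5b (2.13) and Phlda1 (1.96) were higher, Egr4, a close relative of Egr1, was at least 7.71-fold higher, and Mcl1 (-2.15), Plk3 (-1.67) and the cytokine inhibitor Socs3 (-1.04) were lower. Of 25 relatives 0 were higher and 5 lower, among them Batf (-4.93), Batf3 (-4.30), Batf2 (-3.07) and Atf7 (-7.83, by 1 of its 2 probes). At an unadjusted limma p under 0.05, 5 relatives were higher and 9 lower.

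Of 26 AP-1 targets 10 were lower, 0 were higher and 16 did not pass, with a median of -1.11, and at an unadjusted limma p under 0.05 the counts were 14 lower and 0 higher. Higher calls appeared under normexp (1), with array weights (2) and in a fit of the 2 groups alone (3). The lower targets included Spp1 (-6.12), Plau (-4.26), the chemokine Ccl2 (-3.20) and the growth factor Ereg (-2.82). Mmp12 (at least 1127-fold) and Mmp9 (at least 52.4-fold) were also among the 10. Neither reached a signal well above background in passage-8 cells. Both entered through the CD45-positive cells and could pass only as lower. All 8 macrophage and leukocyte markers were lower too (median -8.87), with the sums given above, and their part in the lower targets and relatives was not tested. Of these markers, C1qa (at least 4964-fold) and Adgre1 (at least 2678-fold) also lacked such a signal in passage-8 cells. They could likewise pass only as lower, and their fitted values are part of the median. Among 17 feedback genes 5 were higher, led by Il17rd (2.54), Spry4 (2.20), Dusp5 (1.67) and Rasa1 (1.60), with Dusp16 at 1.05, and 2 were lower, Dusp1 (-3.36) and Dusp7 (-1.34). With any 1 of the 4 arrays left out the feedback counts were 2 higher and 1 lower. Dusp1 encodes a phosphatase of the stress kinases and is itself an early response gene. Of 28 kinases and factors, Mapk12 (3.04) and the serum response factor Srf (1.01) were higher and Rps6ka1 (-1.83) and Nras (-1.21) lower. Among 14 heat shock genes 0 passed with limma, and 5 were higher and 0 lower at an unadjusted p under 0.05.

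The third comparison set passage-8 cells against the primary CD45-negative cells. Fosb was 7.21-fold lower at passage 8 (log2 difference -2.85, SE 0.31, adjusted p = 0.00490) and Jund was 2.13-fold lower (-1.09, SE 0.23, adjusted p = 0.0317), and 0 members were higher. Fos (-1.25, 95% interval -3.11 to 0.61), Jun (-0.91), Fosl2 (-0.30), Fosl1 (0.80), Junb (0.92), Ier2 (0.92), Atf3 (0.50) and Egr1 (0.25) did not pass, at adjusted p-values from 0.0610 to 0.793. At an unadjusted limma p under 0.05, 2 were higher and 2 lower. Thus 2 of 10 passed against 13.9% of 22903 genes (6.97% higher and 6.98% lower), and the median was -0.024 beside -0.013 for all genes. The arrays were apart for 9 of the 10, against 64.4% of all genes.

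Fosb was the only member to pass without CD45-negative replicate 2 or either passage-8 replicate, and without CD45-negative replicate 1 the count was 4, with Jun (-1.47) and Junb (1.22) added. In a fit of these 2 groups alone 0 passed (Fosb at adjusted p 0.0754). The 3 comparisons among cells share arrays, so their values are not independent of each other.

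Of 42 other early genes, Egr4 (at least 3.62-fold) and Ier5 (1.43) were higher at passage 8 and 5 were lower: the flow-responsive factor Klf2 (-1.96), Plk3 (-1.57), the growth factor Hbegf (-1.37), Ier5l (-1.29) and Errfi1 (-1.17). Of 25 relatives Maf (3.34) and Ddit3 (2.00), a factor of the unfolded protein response, were higher, and Batf (-3.17), Batf2 (-2.36) and Batf3 (-1.25) lower. Of 24 AP-1 targets 7 were lower, led by Ereg (-4.19), Timp1 (-2.75) and interleukin Il6 (-2.62), and Mmp13 was higher (6.70, with 1 CD45-negative array above background). These list counts rested on single arrays: without passage-8 replicate 1 or 2 the lower targets were 1 or 0, the lower other early genes 0 in both fits and the lower relatives 1 in both, and without CD45-negative replicate 1 the lower targets were 12. In a fit of the 2 groups alone 0 were lower in each of these 3 lists. Among 17 feedback genes Rasa1 (1.11) and Dusp5 (at least 2.75-fold) were higher and Dusp1 (-2.75) and Spred2 (-1.21) lower. Of 28 kinases and factors, Mapk12 (1.45) and Map2k7 (at least 2.22-fold) were higher and 0 lower with limma, where 5 were higher and 5 lower at an unadjusted p under 0.05. Of 14 heat shock genes 0 passed with limma, and 1 was higher and 3 lower at an unadjusted p under 0.05.

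**Figure D4:**
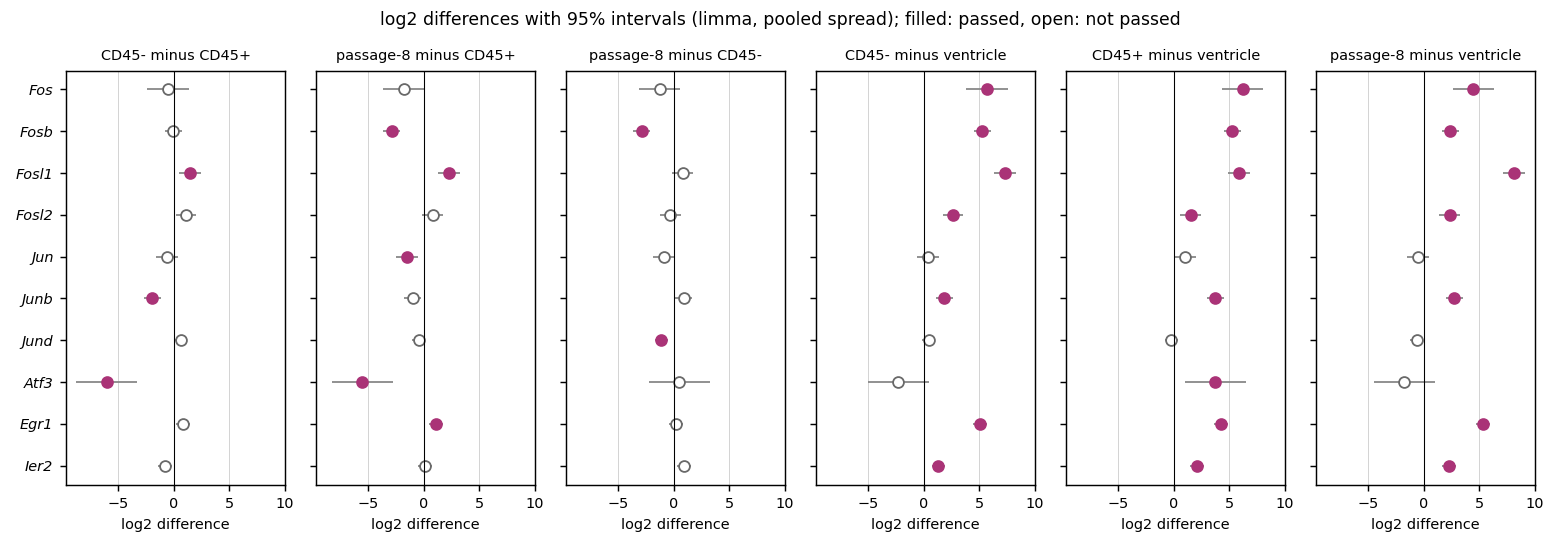
Log2 difference of each of the 10 genes (vertical axis) in the 6 comparisons (panels), with 95% intervals from limma's pooled spread; filled points passed and open points did not, and Fosl1 against ventricle is the fitted value although ventricle was below background. Fosb and Atf3 lie left of 0 in passage-8 minus CD45-positive cells, and no point that passed lies left of 0 in the 3 comparisons with ventricle.

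The last 3 comparisons set each cell type against ventricle and share the 2 ventricle arrays, so their values stand side by side and do not support one another. In CD45-negative cells 7 of 10 members were higher and 0 lower, where 20.3% of 22402 genes were higher, 19.2% lower and 39.5% passed in either direction. In CD45-positive cells 8 were higher and 0 lower (18.3% of 23220 genes higher, 19.8% lower, 38.1% either way). Among passage-8 cells 7 were higher and 0 lower (20.3% of 24127 genes higher, 18.9% lower, 39.2% either way). The arrays were apart for 8, 10 and 10 members, against 71.3%, 81.3% and 81.8% of all genes. At an unadjusted limma p under 0.05 the lower counts were 0, 0 and 1. The members' medians were 2.24, 3.74 and 2.37, against 0.06, -0.02 and 0.05 for all genes tested. Fosl1 is part of each of these counts and medians. It was not well above background on either ventricle array and entered these tests only through the cells, so it could pass only as higher.

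Fos exceeded its ventricle level 52.0-fold in CD45-negative cells (log2 difference 5.70, SE 0.76, adjusted p = 0.00210), 73.3-fold in CD45-positive cells (6.19) and 21.9-fold in passage-8 cells (4.45). Without ventricle replicate 1 these differences were 4.46, 4.96 and 3.22, and without replicate 2 they were 6.93, 7.43 and 5.69, all passing. Fosb was 38.0-fold, 38.6-fold and 5.27-fold higher in the same order. Fosl1, for which ventricle gives only a bound, was at least 51.1-fold, 18.4-fold and 89.2-fold higher. Fosl2 was 6.23-fold, 2.89-fold and 5.06-fold higher, and its CD45-positive call was lost without ventricle replicate 1 (0.99) or either CD45-positive replicate (adjusted p 0.0981 and 0.0927).

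Egr1 was 33.9-fold, 19.1-fold and 40.5-fold higher than in ventricle, in that order of cell types. Junb was 3.57-fold, 13.2-fold and 6.77-fold higher, and Ier2 2.51-fold, 4.26-fold and 4.77-fold, with the first Ier2 call lost under array weights (adjusted p = 0.0541). Atf3 was 13.4-fold higher in CD45-positive cells (log2 difference 3.75, SE 1.11, adjusted p = 0.0381), a call lost without ventricle replicate 1 (2.18, adjusted p = 0.124) or either CD45-positive replicate (0.123 and 0.145). In CD45-negative and passage-8 cells Atf3 differed from ventricle by -2.26 and -1.76 and did not pass, except without ventricle replicate 1, where it was lower (-3.83 and -3.33, adjusted p 0.0306 and 0.0445).

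Besides Atf3 in CD45-negative and passage-8 cells, Jun and Jund did not pass against ventricle. Jun differed from ventricle by 0.42, 0.99 (adjusted p = 0.0901) and -0.49, and Jund by 0.45, -0.21 and -0.64 (adjusted p = 0.0659), and none of these 6 values passed. The 95% interval of Jund in passage-8 cells ran from -1.21 to -0.075 and that of Jun in CD45-positive cells from 0.021 to 1.96, and Jun there passed under median scaling (1.28) and normexp (1.19). Cardiomyocyte marker sums, at least 3068 in ventricle and at most 6.03 in the cells, differed in each comparison with ventricle. Their part in the members' differences from ventricle was not tested.

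Genes of the wider early response list that passed against ventricle were mostly higher in the cells. Other immediate early genes were higher for 19 of 40, 22 of 40 and 19 of 42 in the same order of cell types, and lower for 1, 1 and 3. The higher genes in passage-8 cells include Egr4 (at least 5.90-fold) and Nr4a3 (at least 1.13-fold). Neither was well above background on a ventricle array, so both entered through the cells and could pass only as higher. Egr2 was higher by 5.74, 5.65 and 5.31, Socs3 by 3.50, 4.13 and 3.09, and the NF-kappaB cofactor Nfkbiz by 3.50, 2.82 and 2.92. Ptgs2, the inducible cyclooxygenase, was higher by 5.23, 6.40 and 6.54, with 1 ventricle array above background. The lower genes were Arc in all 3 comparisons (-2.24, -3.63 and -1.05) and, in passage-8 cells, also Klf2 (-1.68) and Mcl1 (-1.14). The medians of this list were 1.07, 1.17 and 1.07, and without either CD45-positive replicate 11 genes were higher in that group.

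Known targets of AP-1 stood higher in the cells, 17 of 22, 21 of 26 and 13 of 24 with 0 lower in each, also at an unadjusted limma p under 0.05 (17, 22 and 17 higher, 0 lower). Il6 was at least 518-fold, 465-fold and 84.5-fold higher, and Timp1 was higher by 8.47, 6.90 and 5.73, the stromelysin Mmp3 by 8.17, 7.66 and 6.24 and Ccl2 by 6.44, 7.39 and 4.19. Spp1 was higher by 9.81, 13.47 and 7.35, with 1 ventricle array above background. The list medians were 3.76, 4.47 and 2.94. Several targets, such as Il6 and Ereg, entered these tests only through the cells, since ventricle was below background. Among the 18 targets well above background on all 8 arrays, 13, 13 and 7 were higher and 0 lower, with medians of 2.77, 3.75 and 1.75. The list was drawn from textbook targets, which include many genes of cultured fibroblasts and macrophages, and fibroblast and macrophage marker sums are given above.

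Relatives with a basic leucine zipper were mixed, with 8, 10 and 6 of 25 higher and 3, 1 and 4 lower in the same order. The shares over all genes were 20.3%, 18.3% and 20.3% higher and 19.2%, 19.8% and 18.9% lower. Atf5 (2.00) and Cebpb (1.96) led in CD45-negative cells, Batf3 (3.50) and Maf (2.88) in CD45-positive cells beside the disputed Atf7 probe (5.70), and Ddit3 (2.44) and Cebpb (1.86) in passage-8 cells. Bach2, a repressor, was lower in all 3 (-1.93, -3.60 and -2.36). The feedback list had 5, 4 and 5 higher and 3, 3 and 5 lower of 16, 17 and 17 tested, with the ERK phosphatases Dusp4 (6.60, 4.07 and 5.05) and Dusp6 (2.47, 2.34 and 1.46) higher and Dusp8 (-2.85, -3.00 and -4.07) lower throughout.

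Upstream kinases and factors were split, with 6, 7 and 7 higher and 5, 5 and 2 lower of 29. Of all genes tested, 39.5%, 38.1% and 39.2% passed in either direction. The p38 kinase gene Mapk13 was higher by 4.15, 4.62 and 2.59 and the serum response coactivator Mrtfa by 2.03, 2.41 and 2.34. Mapk10, which encodes the JNK enzyme of heart and brain, was at least 118-fold, 251-fold and 290-fold lower in the cells, where it was not well above background. Among 14 heat shock genes 2, 1 and 2 were higher and 2, 3 and 2 lower. Hsp90aa1 was higher in each (1.62, 1.09 and 1.63), Dnaja1 (1.64) in CD45-negative cells and Hspa1a (2.20) in passage-8 cells, while Hspb1 (-2.17, -2.41 and -2.83) and Bag3 (-1.66, -2.10 and -1.80) were lower in each and Hspd1 (-1.15) in CD45-positive cells.

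**Figure D5:**
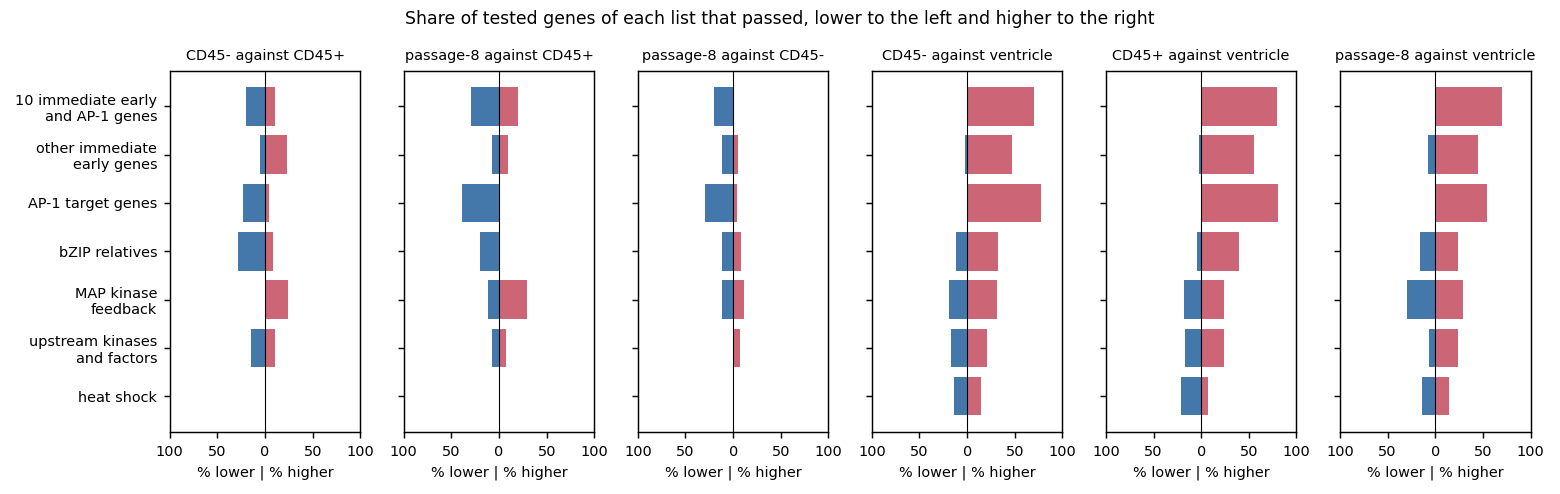
Share of the tested genes of each list that passed (horizontal axis, percent, higher to the right in red and lower to the left in blue) for the 10 immediate early and AP-1 genes and 6 related lists (vertical axis) in the 6 comparisons (panels). Against ventricle the members, the other early genes and the AP-1 targets passed almost entirely as higher, and among cells the AP-1 targets passed mostly as lower at passage 8.

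The ventricle arrays differed from each other in these genes. Replicate 2 exceeded replicate 1 by 5.55-fold for Fos and 8.82-fold for Atf3, gaps that only 0.300% and 0.111% of genes above background on both ventricle arrays surpassed. Fosl2 differed by 2.10-fold, Egr1 by 1.39-fold and Junb by 1.49-fold in the same direction. Ier2 went the other way, at -2.29 in replicate 1 and -2.49 in replicate 2, and the gaps of Ier2, Jund and Jun (1.15-fold, 1.13-fold and 1.01-fold) were the smallest. Of the 9 members above background on both arrays, 3 were at least 2-fold higher in replicate 2 and 0 in replicate 1, against 2.95% and 3.47% of 21687 genes.

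Profiles were compared over the 8 arrays, each centred on its own mean, among 12070 genes, and the closeness measure was the root mean square difference in log2 units. The genes most like Fos were the growth factor Gdf6 (0.61), Egr2 (0.73), the activin gene Inhba (0.82) and Cyp1b1 (0.83). Egr1 lay closest to the lymphangiogenic factor Vegfd (0.16), the noncoding gene Pvt1 (0.19), the Wnt inhibitor Sfrp1 (0.27) and Cenpk (0.31). Atf3 lay closest to Slc43a2 (0.51), Dock10 (0.74), the immune checkpoint gene Cd274 (0.86) and Pgap6 (0.93). These likenesses are descriptions over 8 arrays in 4 groups. Among the members, Junb and Ier2 (0.66), Fosl2 and Ier2 (0.78) and Fos and Fosb (0.93) were close. Fosl1 is left out of these likenesses, since ventricle gives it only a bound.

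Promoters of 7 members were in the RefSeq table of 32851 promoters, and 7 motifs were searched on both strands in the 250 bases before the start. TGACG was present in Fos, Fosb, Junb and Atf3, 4 of 7, against 17.8% of all promoters. TGACATCA was present in Jun (2.93% of all) and TATAAA in Fos (12.4% of all). The full AP-1 site TGACTCA (4.46%), the full cAMP response element TGACGTCA (1.55%, which contains TGACG), the Egr site GCGTGGGCG (0.536%) and the CArG box of the serum response factor (1.47%) were in 0 of 7. Fosl2 and Jund held none of the 7 motifs. A missing match says only that these letters are not in this window.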

How the data were processed

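Total RNA of 8 samples (200 ng each) was labelled with Cy3 and hybridised to one-colour Agilent mouse arrays on 1 slide. The authors deposited spot intensity values as scanner output. The submitters' processing notes name Agilent Feature Extraction 10.7. The processed signal is background-subtracted and detrended within the array, per the file headers. The authors' value table holds log2 values with no stated normalization method, and it served as an alternative. The 3671 control spots of 62976 and 167 to 248 outlier spots per array were left out, and no spot was saturated. Processed signals were put on the log2 scale, the array's 75th percentile was subtracted, and the values were averaged over spots of a probe, and a gene took its probe with the highest mean over 8 arrays. Of the probes, 27235 matched a RefSeq gene table, which updated 2838 symbols.

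A single limma model (version 3.58.1, lmFit and eBayes, R 4.3.3) covered all 8 arrays, with 1 mean per group, leaving 4 residual and 5.88 total degrees of freedom. Tested genes were those with both arrays of 1 or both compared groups well above background, with Benjamini-Hochberg adjustment over all of them and two-sided p-values. The smallest p that exact permutation allows with 2 arrays a group is 0.333. SEs and 95% intervals rest on the spread pooled over the 4 groups. The script was tested on simulated data. For a bound, the dim group's arrays took the lowest signal that was well above background, or the probe's signal where larger.

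Members, lists and thresholds were chosen with earlier results of these data known. List genes named were the largest up to 4 differences per direction above background on all arrays compared, all members of counts of 5 or fewer, and bounds where few others existed; other examples from larger counts were picked after their values were seen. Some list genes that the rule would name are not reported here. Alternatives covered normalization, background correction, filters, probes, moderation, array weights, the arrays fitted, the replicate block and each array left out. The number of arrays limits the precision.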

Additional observations from a re-analysis of the deposited data

How the results depend on the processing

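Against ventricle the count of members passing stayed within 1.5 times its value under every alternative run, and no member that passed changed sign under any. Among cells it moved. In CD45-negative against CD45-positive cells, with 3 passing, it ran from 0 to 4 with 1 array left out, and in passage-8 against CD45-positive cells, with 5 passing, from 1 to 2. In passage-8 against CD45-negative cells, with 2 passing, it was 1 under median scaling, quantile normalization, normexp, the authors' value table and array weights, 0 in a fit of the 2 groups alone, and 1 to 4 with 1 array left out. In all, 5 uncalled differences changed sign: for CD45-negative against CD45-positive cells Fosb at 0.0059 without CD45-negative replicate 2 and 0.046 without CD45-positive replicate 2 (with 1 array left out, from -0.094 to 0.046), Ier2 at -0.066 for passage-8 against CD45-positive cells without CD45-positive replicate 2 (with 1 array left out, up to 0.40), Atf3 at -0.53 for passage-8 against CD45-negative cells without CD45-negative replicate 1, Jun at -0.15 for CD45-negative cells against ventricle without CD45-negative replicate 2, and Jund at 0.074 for CD45-positive cells against ventricle under median scaling. The cause was not tested. Fosl1 against CD45-positive cells also lost its CD45-negative call under median scaling, with no filter, with array weights and in a fit of the 2 groups alone, Egr1 its passage-8 call under median scaling (0.98), and Jun its passage-8 call under quantile normalization (-1.39) and with no filter.

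Whether replicate numbers pair the samples was not settled. Deviations of same-numbered samples correlated between -0.196 and 0.193, with both signs among the pairs of groups. With so few arrays in a group, these correlations cannot decide the question. The fit with the replicate number as a block kept 59 of 60 member calls, and Jun in passage-8 against CD45-positive cells was lost (-1.48, adjusted p = 0.0578).

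Over all genes, passing counts moved by over 1.5 times only among cells and once against ventricle. In CD45-negative against CD45-positive cells 4707 became 1976 in a fit of the 2 groups alone and 1072 or 693 without CD45-positive replicate 1 or 2. In passage-8 against CD45-positive cells 5547 became 2424, 2194 or 2905 without CD45-positive replicate 1 or 2 or passage-8 replicate 2. In passage-8 against CD45-negative cells 3194 became 1935 under median scaling, 1795 with array weights, 181 in a fit of the 2 groups alone, 5193 without CD45-negative replicate 1, and 906 or 854 without passage-8 replicate 1 or 2. In CD45-positive cells against ventricle 8843 became 5676 without CD45-positive replicate 2. Under median scaling the share of passing genes that were higher went from 51.6% to 36.3% in CD45-negative and from 53.6% to 42.5% in passage-8 against CD45-positive cells, and from 48.0% to 58.6% in CD45-positive cells against ventricle, while normexp took passage-8 against CD45-negative cells from 50% to 31.0%. The median of all genes moved with it, from 0.17 to 0.029 in the first comparison and from -0.02 to 0.26 in CD45-positive cells against ventricle.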

Other observations

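The gap between the 2 ventricle arrays extended beyond the 10 genes. Of 39 other immediate early genes well above background on both ventricle arrays, 11 were at least 2-fold higher in replicate 2 and 0 in replicate 1, with a median gap of 0.59 log2 units against -0.07 for 21687 genes. The orphan nuclear receptor Nr4a1 had log2 signals of 1.87 and 5.65, the matrix growth regulator Ccn2 4.62 and 6.88, the antiproliferative gene Btg2 0.75 and 2.38, Myc -1.82 and -0.38, and Nr4a2 -2.79 and -1.36. These genes were picked after their values were seen, as those with the widest gaps. Among 29 upstream kinases and factors and 25 relatives with a basic leucine zipper, 0 had such a gap in either direction, and of 14 heat shock genes 1 had it each way. Of 4 smooth muscle and pericyte markers, 2 were at least 2-fold higher in replicate 2 and 0 in replicate 1, and their part in the gap was not tested.

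In the CD45-negative arrays, all 7 macrophage markers above background on both were at least 2-fold higher in replicate 2, as were 9 of 22 AP-1 targets, Atf3 and Jun, against 9.73% of 19109 genes. In the CD45-positive and passage-8 arrays 0 of the 10 members differed by 2-fold between replicates, and few of all genes did. Of 21316 genes in CD45-positive cells, 0.342% were at least 2-fold higher in replicate 2 and 0.755% in replicate 1. For 22597 genes in passage-8 cells these shares were 2.36% and 0.173%.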
